A study of Mus musculus with 3 samples.

Results

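The variable (V) gene segments of the T cell receptor were described in single T cells of mouse tumours. Members were all genes in the deposited gene list whose symbol starts with Trbv (beta chain) or Trav (alpha chain) followed by a digit. These were 163 of 32285 genes, 35 Trbv and 128 Trav. MC38 is an established mouse colon carcinoma line, grown here as tumours in mice. Cells stained for CD3 were sorted from tumours collected on day 15, after 5 days of treatment, and sequenced on the 10x Genomics Chromium system. There were 3 libraries, named by their treatment as PBS (phosphate-buffered saline), mix and homo, with 1 library per treatment. According to the title, the study tested interleukin-2 aimed at T cells through LAG3, a receptor that restrains them. The labels do not say what the mix and homo treatments contained, and give no strain or age of the mice and no number of animals per library. With 1 library per treatment no test between treatments was possible, and differences between animals and between treatments cannot be told apart.

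An alpha beta T cell builds its receptor from a rearranged alpha chain and a rearranged beta chain. A rearranged chain joins a V segment to a joining segment, with a diversity segment between them in the beta chain, and is spliced to a constant gene (Trbc1 or Trbc2 for beta, Trac for alpha). Cells that descend from the same T cell keep the same V segments, so a V gene is often taken as a coarse mark of descent, although many unrelated cells share it. The complementarity-determining region 3 (CDR3), the stretch across the joint that identifies a clone, was not read here, and a shared V gene or pair of V genes is not a clone.

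The 3′ ends of the V segments that the results turn on are shown first, since they hold the last germline bases before the joint. The letters are the final 120 bases of each segment in the GENCODE M21 transcripts of the mouse GRCm38 assembly, matched by gene identifier. Capitals mark the codon of the conserved cysteine with which the CDR3 opens. The first 4 lie in the Trb locus on chromosome 6 and led the beta chain of a library or accompanied a leading gene. All are on the plus strand except Trbv31, an inverted segment beyond the constant genes, which is on the minus strand.
Trbv2: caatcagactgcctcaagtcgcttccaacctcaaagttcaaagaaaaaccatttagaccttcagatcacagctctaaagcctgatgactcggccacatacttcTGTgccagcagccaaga
Trbv20: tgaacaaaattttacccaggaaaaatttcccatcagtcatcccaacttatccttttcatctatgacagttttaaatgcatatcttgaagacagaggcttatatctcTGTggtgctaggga
Trbv16: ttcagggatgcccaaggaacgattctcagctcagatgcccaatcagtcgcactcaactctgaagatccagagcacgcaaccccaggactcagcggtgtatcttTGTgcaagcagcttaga
Trbv31: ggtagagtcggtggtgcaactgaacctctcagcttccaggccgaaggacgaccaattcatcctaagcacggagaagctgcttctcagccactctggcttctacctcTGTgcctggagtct

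Trbv2 and Trbv20 differed at 93 of these 120 bases, Trbv2 and Trbv16 at 62, and Trbv16 and Trbv31 at 90. Every 50-base window of these 4 segments occurred in no other V segment of the annotation. The alpha locus on chromosome 14 holds duplicated blocks, and copies carry a d or an n in their names. The next lines show Trav8d-2, the leading alpha segment of mix, and a pair of copies that cannot be told apart at this end.
Trav8d-2: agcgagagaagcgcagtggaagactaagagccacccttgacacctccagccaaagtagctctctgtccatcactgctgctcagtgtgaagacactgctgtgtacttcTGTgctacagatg
Trav15d-1-dv6d-1: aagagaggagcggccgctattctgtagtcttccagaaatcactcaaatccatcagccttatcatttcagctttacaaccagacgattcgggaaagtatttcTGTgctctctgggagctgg
Trav15n-1: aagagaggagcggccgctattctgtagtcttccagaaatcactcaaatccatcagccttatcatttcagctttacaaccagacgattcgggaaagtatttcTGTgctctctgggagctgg

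Trav15d-1-dv6d-1 and Trav15n-1 differed at 0 of the 120 bases, and no 50-base window of Trav15n-1 was unique to it. Of the 128 Trav genes, 39 had no unique window, and these 39 received 0 of 9919 Trav calls. How reads that match several copies were counted is not given in the sources used here, so Trav results are also given by family.

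After filtering, 9214, 7588 and 7303 cells were kept in PBS, mix and homo. CD8-gated cells had at least 1 UMI (unique molecular identifier, 1 counted transcript molecule) of Cd8a or Cd8b1 and none of Foxp3, the factor that marks regulatory T cells. They numbered 7259, 5683 and 6645. Foxp3-gated cells had at least 1 Foxp3 UMI and none of Cd8a and Cd8b1, and numbered 847, 815 and 124. Median UMIs per CD8-gated cell were 5131, 5629 and 6938, and per Foxp3-gated cell 3089, 3455 and 3368, each in the order PBS, mix and homo. Cd3e was seen in 97.4% to 97.7% of CD8-gated cells. Cd4 was seen in 39.5% to 49.8% and Ikzf2 in 89.1% to 93.5% of Foxp3-gated cells. The macrophage gene C1qb was seen in at most 1.06% of the cells of any gate and library, and the epithelial gene Krt8 in 0 cells. Krt18, another epithelial gene, was seen in 0.22% to 0.54% of CD8-gated cells and in 1.47% to 2.42% of Foxp3-gated cells. Pairs of libraries shared 100 to 131 barcodes. In shared barcodes with a Trbv call in both libraries, the same Trbv gene was called in at most 5.

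A cell was assigned the V gene of a chain with the most UMIs, at least 2, and cells with a tie were left uncalled. Trbv calls were made in 79.8% (95% exact Clopper-Pearson interval 78.9% to 80.7%) of PBS CD8-gated cells, 81.3% of mix and 84.5% of homo. In Foxp3-gated cells they were made in 50.4%, 56.9% and 54.8%. Trav calls were made in 46.9%, 40.4% and 48.4% of CD8-gated cells and in 58.2%, 54.0% and 56.5% of Foxp3-gated cells. Intervals cover counting error only, and cells that descend from the same cell are not independent. Only 5, 2 and 1 barcodes passed a macrophage gate without CD3 genes, and 0 of them had a call, too few to measure the level of free RNA. With cells thinned to 2000 UMIs, the share of CD8-gated cells of the 3 libraries with a Trav call went from 45.5% to 24.0%, and the Trbv share from 81.8% to 60.4%.

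V genes gave more UMIs than the constant genes of the same chain, although the labels name a 3′ kit. In CD8-gated cells there were 2.96 Trbv UMIs per Trbc UMI in PBS, 2.24 in mix and 3.91 in homo. The ratio of Trav to Trac was 1.17, 1.12 and 1.47. Annotated V segments differ in length. Calls and shares weighted by UMIs rank V genes by their UMIs with no correction for length, and levels in CPM are compared between cells for the same gene only.

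Of the 163 V genes, 119 had a UMI in gated cells and 98 were called in at least 1 gated cell. All 22 Trbv genes annotated as functional segments were called, as were 3 of the 13 annotated as pseudogenes, with 18 of 16988 Trbv calls. Of the Trav genes, 69 of 108 functional segments and 4 of 20 pseudogenes were called. The segments without a copy letter took 73.6% of the Trav calls, the d copies 10.4% and the n copies 16.0%.

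Beta chains of CD8-gated cells were led by a different V gene in each library, and each leading gene took about the same share. In PBS, Trbv2 was called in 1509 of 5793 cells with a Trbv call, or 26.0% (interval 24.9% to 27.2%). In mix, Trbv20 was called in 1218 of 4618, or 26.4% (25.1% to 27.7%). In homo, Trbv16 was called in 1406 of 5618, or 25.0% (23.9% to 26.2%). Trbv2 was at 2.88% in mix and 3.08% in homo, and Trbv20 at 5.32% in PBS and 2.01% in homo. Trbv16 was more widely used, at 9.60% in PBS and 13.3% in mix.

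The PBS share of Trbv2 depended on the setting, although Trbv2 led under every setting run. Weighted by UMIs that lead was narrow, with 7918 UMIs of Trbv2 and 7740 of Trbv17. The Trbv2 share was 16.7% with cells thinned to 2000 UMIs, 14.3% of Trbv UMIs and 24.3% with calls from 3 UMIs. Among cells with UMIs of a single Trbv gene it was larger, at 32.4%. In homo, Trbv16 was at 8.19% among such cells, where Trbv13-1 led. Many Trbv16 cells of homo held a second beta transcript, described further on.

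Behind the leading genes, libraries also differed. Trbv13-1 was at 4.63% in PBS, 12.9% in mix (11.9% to 13.9%) and 14.9% in homo (14.0% to 15.9%). Trbv1 was at 1.35% and 1.62% in PBS and mix and at 9.06% (8.32% to 9.84%) in homo. Trbv26 was at 4.71%, 2.75% and 9.31% in the same order, and Trbv3 at 3.75%, 4.89% and 7.58%. Trbv17 and Trbv31 had their highest shares in PBS, at 6.28% and 5.61%, against 1.15% and 2.27% in mix and 2.94% and 0.41% in homo. Trbv14 lay between 1.60% and 1.82% in all 3 libraries, with overlapping intervals.

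**Figure D1:**
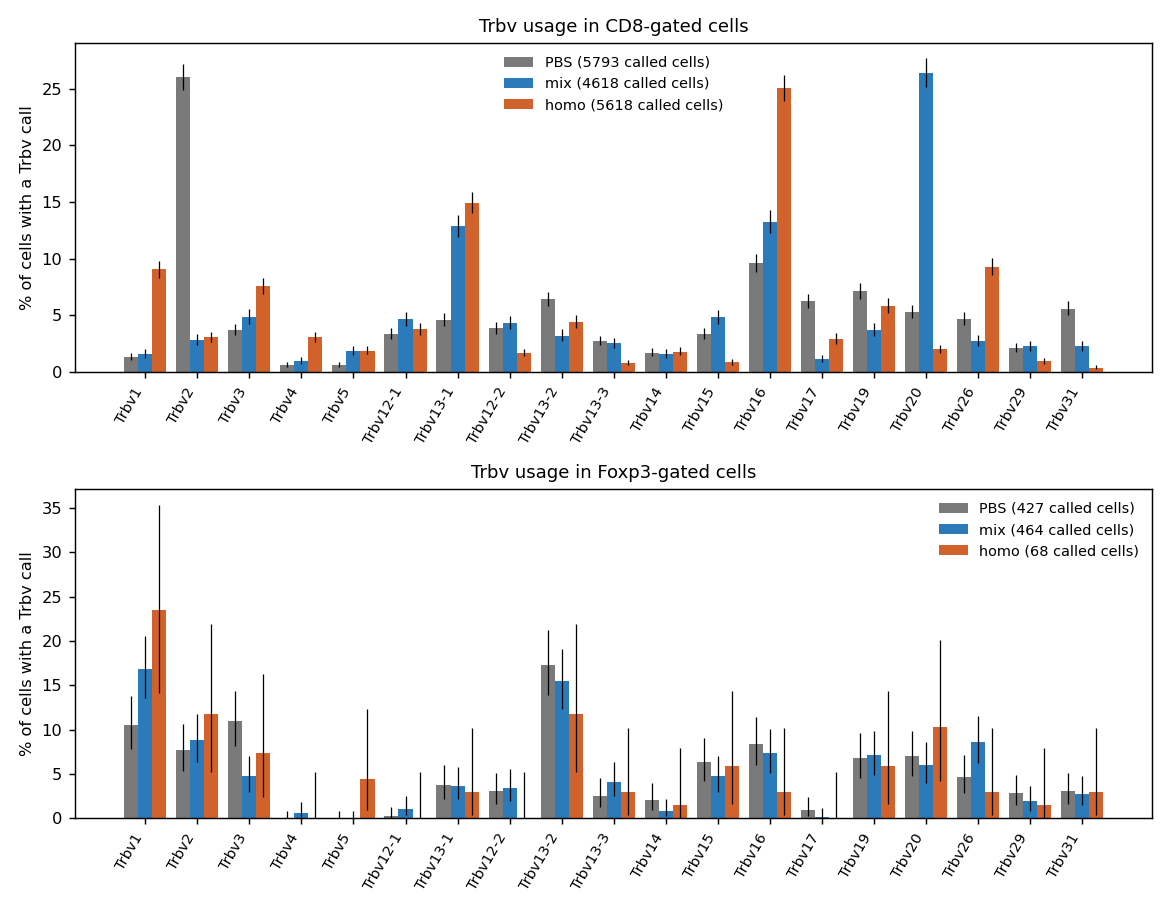
Share of cells with a Trbv call (y axis, %) in which each Trbv gene had the most UMIs, for genes reaching 2% in any library and gate, in CD8-gated cells (top) and Foxp3-gated cells (bottom). Bars are the PBS, mix and homo libraries and lines are exact 95% intervals for counting error: Trbv2, Trbv20 and Trbv16 each stand out in 1 library in CD8-gated cells, while the PBS and mix bars of Foxp3-gated cells lie closer.

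The 5 most used Trbv genes together took 55.5% (54.2% to 56.8%) of PBS CD8-gated calls, 62.3% of mix and 65.9% of homo. They were chosen in the same cells, so these shares describe the skew only. The effective number of V genes, the inverse Simpson index corrected for cell number, is the number of equally used genes that would give the same skew. For Trbv it was 9.31 for PBS, 8.37 for mix and 8.43 for homo. The number of different Trbv genes expected among 50 cells was 15.3, 15.1 and 13.9.

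Foxp3-gated cells used another mixture of beta segments. Trbv13-2 was called in 17.3% (13.9% to 21.3%) of PBS cells, 15.5% of mix and 11.8% of homo, where 68 cells had a call. Trbv1 was called in 10.5%, 16.8% (13.5% to 20.5%) and 23.5% (14.1% to 35.4%). Weighted by UMIs, the Trbv1 share in mix was 29.3%. Trbv2 was at 7.73%, 8.84% and 11.8%, Trbv20 at 7.03%, 6.03% and 10.3% and Trbv16 at 8.43%, 7.33% and 2.94%, so that none of the genes leading the CD8-gated cells exceeded 11.8% here. Trbv17 was called in 0 of 68 homo cells, which allows a share of up to 4.41%, taken as 3 counts of the total. Effective numbers were 11.7, 11.1 and 10.0.

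The distance between 2 usages is given as the share of calls that would have to move to another gene to make them alike. In CD8-gated cells it was 40.6% between PBS and mix, 46.1% between PBS and homo and 38.2% between mix and homo. In Foxp3-gated cells it was 15.7% between PBS and mix, 26.1% between PBS and homo and 23.2% between mix and homo. Both homo values rest on 68 cells, and sampling alone adds to a distance when cells are few. Within a library, CD8-gated and Foxp3-gated cells were 34.1% (PBS), 45.0% (mix) and 52.8% (homo) apart.

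Alpha chains of CD8-gated cells were also led by a different gene in each library. In PBS, Trav5-4 was called in 9.61% (8.64% to 10.7%) of 3402 cells with a Trav call, followed by Trav21-dv12 at 8.20% and Trav4-2 at 6.76%. Calls at 1 UMI put Trav17 first in PBS and thinned cells put Trav21-dv12 first. In mix, Trav8d-2 was called in 17.6% (16.1% to 19.2%) of 2296 cells, against 1.15% in PBS and 0.59% in homo. Weighted by UMIs its share in mix was 28.1%. In homo, Trav3-3 was called in 12.7% (11.6% to 13.9%) of 3218 cells and Trav13-1 in 12.0%, and thinning reversed their order. Trav3-3 was at 1.56% in PBS and 2.35% in mix, and Trav13-1 at 3.38% and 7.27%.

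By family, Trav8 took 3.998% of calls in PBS, 26.3% (24.5% to 28.2%) in mix and 13.6% (12.4% to 14.8%) in homo. The Trav3 family took 4.41%, 3.05% and 15.4%, and the Trav13 family 7.44%, 12.1% and 15.9%. Effective numbers of Trav genes were 24.5, 18.5 and 17.8 in the 3 libraries in that order. By family they were 13.9, 8.23 and 9.68, with PBS again the highest. In Foxp3-gated cells no Trav gene exceeded 8.57% and effective numbers were 36.3, 35.3 and 30.2, or 12.0, 10.3 and 12.8 by family.

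Trav11 and Trav11d encode the alpha chain of semi-invariant natural killer T cells. Both are among the 39 Trav genes without a unique window, and their 0 calls therefore give no limit on such cells. Trav1 is the alpha segment of mucosal-associated invariant T cells and also of other T cells. It was called in 4.41%, 3.09% and 1.65% of CD8-gated cells with a Trav call in PBS, mix and homo.

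**Figure D2:**
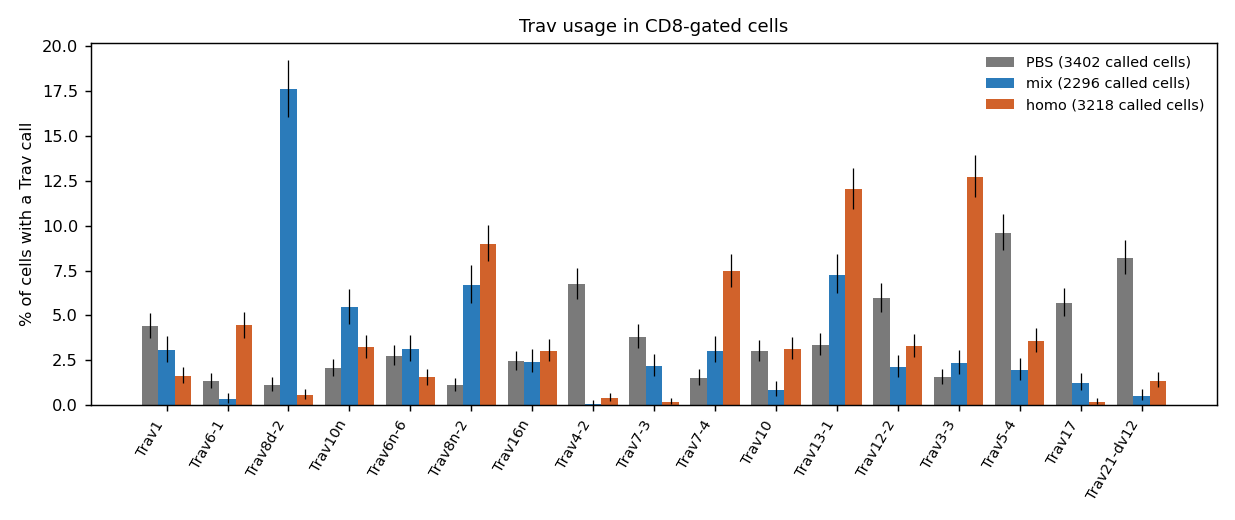
Share of CD8-gated cells with a Trav call (y axis, %) in which each Trav gene had the most UMIs, for genes reaching 3% in any library. Bars are the PBS, mix and homo libraries with exact 95% intervals for counting error: Trav8d-2 stands out in mix, Trav3-3 and Trav13-1 in homo, and Trav5-4, Trav21-dv12 and Trav4-2 in PBS.

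Usage differed most between libraries in CD8-gated cells with transcripts of inhibitory receptors. Within the CD8 gate, PD-1-gated cells had a UMI of Pdcd1, which encodes PD-1, and a UMI of Havcr2 (TIM-3) or Lag3. Naive-gated cells had no Pdcd1 and Havcr2 UMI and had a UMI of Ccr7, which encodes a chemokine receptor of naive and memory T cells. Neither gate uses a V gene. Trbv2 was called in 32.9% (31.5% to 34.4%) of 4001 PD-1-gated PBS cells with a call and in 3.23% (1.40% to 6.26%) of 248 naive-gated ones. Trbv20 was called in 30.7% (29.2% to 32.3%) of 3387 PD-1-gated mix cells and in 4.29% (2.08% to 7.75%) of 233 naive-gated ones. Trbv16 was called in 26.7% (25.5% to 28.0%) of 4648 PD-1-gated homo cells and in 10.3% (5.46% to 17.4%) of 116 naive-gated ones. These genes were chosen as the leaders of all CD8-gated cells, most of which were PD-1-gated (4001 of 5793, 3387 of 4618 and 4648 of 5618 called cells), so high shares in that gate follow in part from the choice.

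In naive-gated cells these 3 genes could not be told apart between libraries at this depth. Trbv2 was at 3.23%, 2.58% and 1.72% in PBS, mix and homo, Trbv20 at 4.44%, 4.29% and 0.86%, and Trbv16 at 7.26%, 10.3% and 10.3%, with overlapping intervals for each gene. Naive-gated usages were 13.5% apart between PBS and mix, 18.7% between PBS and homo and 13.2% between mix and homo, although they rest on fewer cells than any other CD8 usage. PD-1-gated usages were 48.4%, 52.2% and 42.7% apart. Effective numbers of Trbv genes were 16.8, 15.4 and 16.1 in naive-gated cells and 6.87, 6.87 and 7.62 in PD-1-gated cells. Median UMIs were 4611, 4428 and 5790.5 in naive-gated cells and 5847, 6368 and 7680.5 in PD-1-gated cells, and the part of depth in these differences was not tested.

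**Figure D3:**
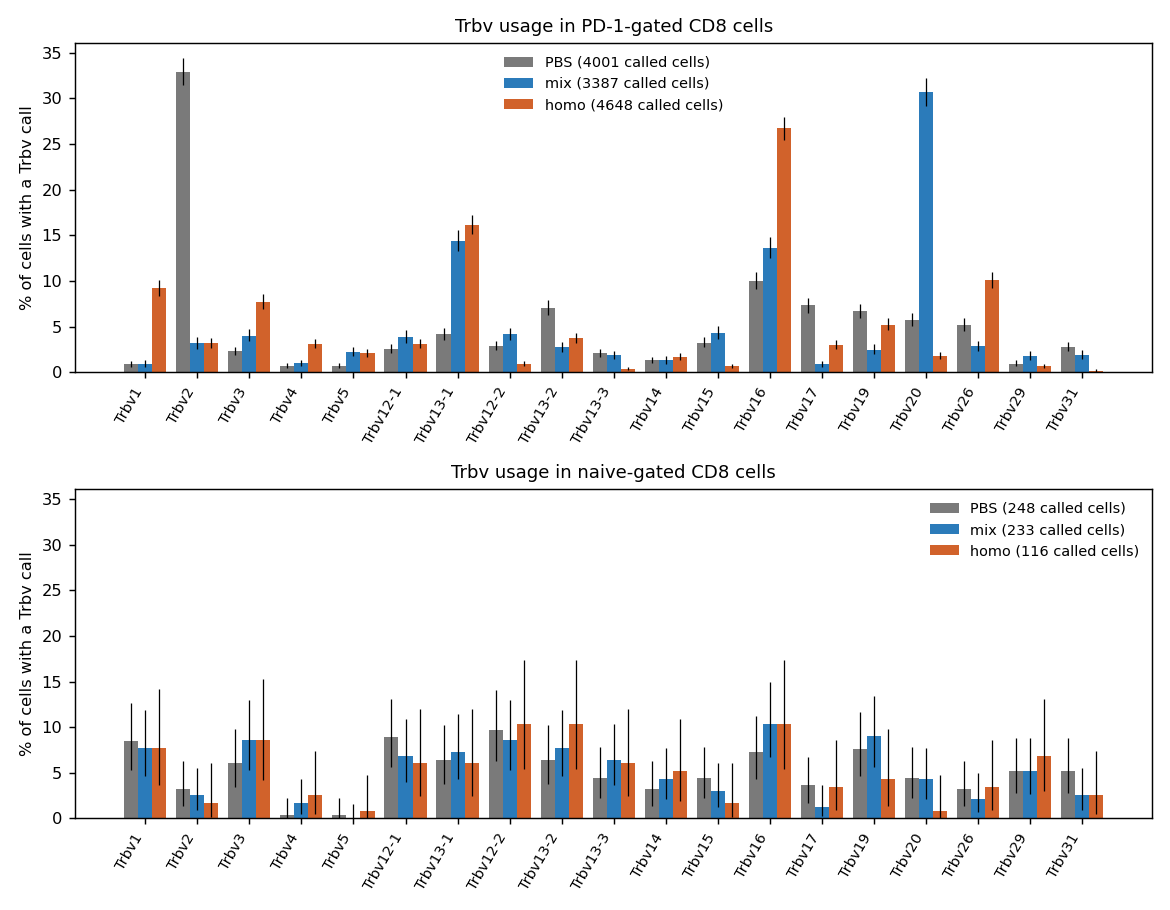
Share of cells with a Trbv call (y axis, %) for each Trbv gene in PD-1-gated (top) and naive-gated (bottom) CD8 cells of the PBS, mix and homo libraries, with exact 95% intervals for counting error. The bars of Trbv2, Trbv20 and Trbv16 reach 32.9%, 30.7% and 26.7% in the PD-1 gate, and the highest bar in the naive gate is at 10.3%.

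Alpha chains were also more skewed in the PD-1 gate than in the naive gate. Trav5-4 led PD-1-gated PBS cells at 12.2%, Trav8d-2 mix cells at 21.4% and Trav3-3 homo cells at 13.7%. In naive-gated cells the highest share of any Trav gene was 6.96%, 8.82% and 7.69% in PBS, mix and homo. Their intervals were wide, at 3.53% to 12.1%, 4.64% to 14.9% and 2.88% to 16.0%, from 158, 136 and 78 calls. In PBS and homo they overlapped those of the PD-1-gated leaders, at 10.9% to 13.6% and 12.4% to 15.0%. Effective numbers were 37.9, 33.4 and 45.5 in naive-gated cells and 20.2, 14.1 and 16.2 in PD-1-gated cells.

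Summed levels of V genes were compared between libraries as CPM, counts scaled by all UMIs of the gated cells, among genes with at least 10 CPM in either library. In CD8-gated cells, 31 of the 43 V genes that entered differed at least 2-fold between homo and PBS, against 2.19% of all 7867 genes. Of these, 11 were higher and 20 lower in homo, against 0.636% and 1.55% of all genes. Between mix and PBS 27 of 44 did, against 0.539% of 7793 genes. Of these, 9 were higher and 18 lower in mix, against 0.244% and 0.295% of all genes. Those 27 were most of the 42 genes of any kind that differed so far. Between homo and mix 19 of 36 did, against 2.2% of 7874 genes, with 12 higher and 7 lower in homo, against 0.749% and 1.45% of all genes. Entry at 10 CPM in either library favours V genes that are high in 1 of them, so these counts describe only those that entered. At a minimum of 50 CPM, 10 of 15 V genes differed between homo and PBS (2.08% of all genes), 7 of 12 between mix and PBS (0.271%) and 9 of 15 between homo and mix (2.22%).

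Trbv1 had the highest ratio of homo to PBS among beta segments, at 131 and 21.5 CPM, a log2 ratio of 2.60 (exact conditional binomial interval 2.50 to 2.70). Such intervals treat each UMI as independent, although a cell holds several UMIs of its V gene, so they are too narrow. Trbv13-1 was at 56.5 CPM in PBS and 191 in homo, a log2 ratio of 1.75, and at 211 in mix, 1.90 above PBS. Trbv2 was at 188 CPM in PBS, 24.9 in homo and 21.8 in mix, with log2 ratios to PBS of -2.92 (-3.002 to -2.83) and -3.11 (-3.21 to -3.001). Trbv20 was at 70.5 CPM in PBS, 385 in mix and 36.6 in homo, a log2 ratio of 2.45 (2.39 to 2.51) for mix against PBS and of -3.40 for homo against mix. Trbv15 was at 89.2, 139 and 19.7 CPM in PBS, mix and homo. Trbv16 was at 150, 253 and 473 CPM in that order.

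Among alpha segments, the difference was widest for Trav4-2, at 28.8 CPM in PBS against 0.31 in mix, a log2 ratio of -6.56 (-7.57 to -5.71), and 1.64 in homo. Trav8d-2 was at 7.34 CPM in PBS, 145 in mix and 3.13 in homo, a log2 ratio of 4.30 (4.14 to 4.47) for mix against PBS. Trav3-3 was at 9.66, 10.8 and 63.9 CPM in PBS, mix and homo, a log2 ratio of 2.72 (2.58 to 2.88) for homo against PBS. Trav17 and Trav7-3 were at 24.4 and 16.3 CPM in PBS and at 1.22 and 0.65 in homo. Trav6-1 was at 0.9994 CPM in mix and 17.2 in homo.

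**Figure D4:**
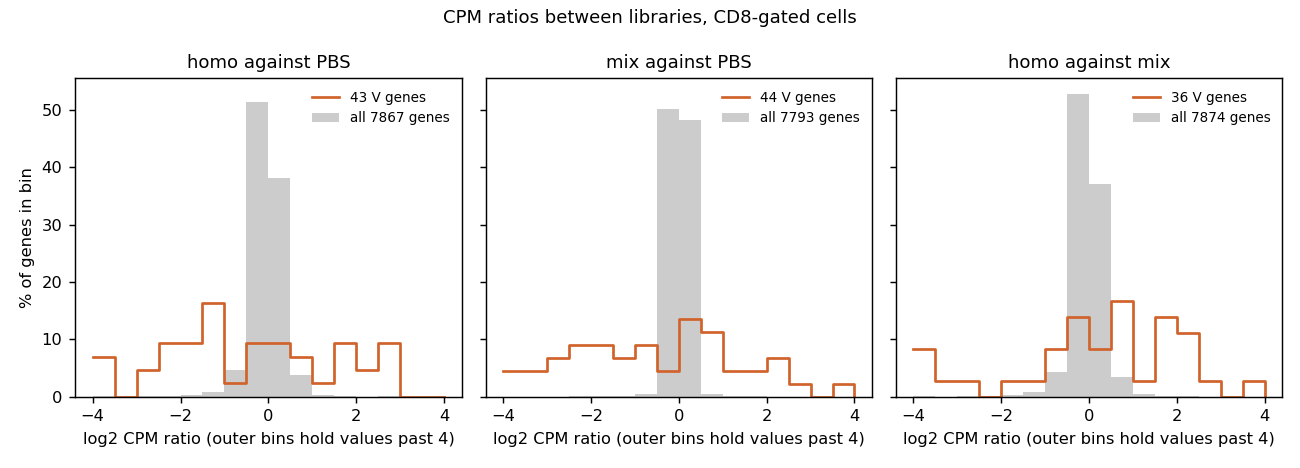
Distribution of log2 CPM ratios (x axis; bins of 0.5, outer bins also hold values beyond 4) over genes with at least 10 CPM in either library, in CD8-gated cells. Grey bars are all genes and the line is V genes, each as % of its genes (y axis): all genes gather around 0, while V genes spread from -4.65 to 2.72 for homo against PBS, from -6.56 to 4.30 for mix against PBS and from -5.53 to 4.11 for homo against mix.

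The constant genes and the CD3 genes, which every alpha beta T cell uses, moved less. Trac was at 454, 459 and 321 CPM in PBS, mix and homo, a log2 ratio of -0.50 for homo against PBS. Trbc1 was at 127, 213 and 121 CPM and Trbc2 at 319, 480 and 289, both highest in mix. The ratios of Cd3d, Cd3e, Cd3g and Cd247 for homo against PBS were 0.06, -0.11, -0.05 and 0.25.

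In Foxp3-gated cells, 17 of 53 V genes differed at least 2-fold between mix and PBS, against 0.733% of all genes. They were 6 higher and 11 lower genes in mix, against 0.199% and 0.534% of all genes. Trbv1 was at 136 CPM in PBS and 261 in mix, a log2 ratio of 0.94 (0.78 to 1.11), and Trbv3 at 92.2 and 43.4, a log2 ratio of -1.09 (-1.38 to -0.80). In homo, with 124 cells, 31 of 54 V genes differed from PBS against 10.5% of all genes, and 26 of 51 from mix against 9.47%. Against PBS 9 were higher and 22 lower in homo (5.65% and 4.87% of all genes), and against mix 10 were higher and 16 lower (5.19% and 4.28%). These homo counts can rest on few cells, so all genes are not a like background. Trav7-6, for example, entered with 8 UMIs in homo and 4 in PBS. Foxp3-gated homo cells with a Trav call held a mean of 4.66 UMIs of the called gene. Trbv1 was at 316 CPM in homo, 1.22 (0.94 to 1.48) above PBS on the log2 scale. That homo level is 151 UMIs, with 16 cells called for Trbv1, so the interval is too narrow even for counting error. At a minimum of 50 CPM, 2 of 12 V genes differed between mix and PBS (0.117% of all genes), 5 of 14 between homo and PBS (3.42%) and 6 of 15 between homo and mix (3.58%). At 1.5-fold, 28 of 53 differed between mix and PBS, against 4.03% of all genes.

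Beta and alpha calls fell into recurring pairs whose cell numbers differed between libraries. In PBS, 194 of 2847 CD8-gated cells with both calls, or 6.81% (5.92% to 7.80%), had Trbv17 with Trav5-4. The product of the single shares was 1.08%. Trbv2 with Trav17 followed with 155 cells, and 91.2% of the paired cells with Trav17 had Trbv2. In mix, 355 of 1918 cells, or 18.5% (16.8% to 20.3%), had Trbv13-1 with Trav8d-2, against a product of 5.11%. Of the paired mix cells with Trav8d-2, 92.7% had Trbv13-1. In homo, 267 of 2894 cells, or 9.23% (8.20% to 10.3%), had Trbv13-1 with Trav13-1, and 172 had Trbv1 with Trav7-4.

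Of 63 pairs with at least 20 cells in a library, 56 reached 20 cells in 1 library, 7 in 2 libraries and 0 in all 3. Entry by 20 cells in any library favours pairs that are high in 1 of them, and no such count over all pairs is given. Pairs that differ only in the Trav copy, such as Trbv1 with Trav7-4 or Trav7d-2, were counted apart. Only 19 of the 63 had 0 cells in both other libraries, and 27 were seen in at least 1 cell of all 3. Trbv17 with Trav5-4 was found in 194 cells of PBS, 10 of mix and 91 of homo. Trbv16 with Trav1 was found in 68, 42 and 3 cells. Trbv1 with Trav7-4 was found in 1 cell each of PBS and mix. In Foxp3-gated cells the most frequent pair of each library had 8, 9 and 2 cells. Pairs can be seen only where both chains were called, and the leading beta genes were under-represented among them.

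Cells called for the leading Trbv gene of their library seldom had a Trav call. It was made in 276 of 1509 Trbv2 cells of PBS, 18.3% (16.4% to 20.3%), against 60.01% (58.5% to 61.5%) of other cells with a Trbv call. In mix, 9.28% (7.71% to 11.0%) of Trbv20 cells had one, against 53.1% of others. In homo, 20.8% (18.7% to 23.0%) of Trbv16 cells had one, against 61.8% of others. Thinned to 2000 UMIs, these were 5.41% against 34.9%, 4.15% against 31.3% and 8.52% against 27.02%. Median UMIs were 6478 in Trbv2 cells against 5079 in others, 5831 against 5967.5 for Trbv20 and 8177.5 against 7255.5 for Trbv16.

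The constant gene of the alpha chain, not scaled for depth, was higher than in others in Trbv2 and Trbv20 cells and lower in Trbv16 cells of homo. Mean Trac UMIs were 3.43 in Trbv2 cells against 2.64 in others, 3.55 in Trbv20 cells against 2.91, and 2.29 in Trbv16 cells of homo against 2.91. Trav call shares varied among the other leading beta genes. In PBS they were 75.8% for Trbv17, 72.6% for Trbv19, 55.2% for Trbv16 and 36.3% for Trbv13-2, the last below the 50.03% of its comparison cells. In mix they were 82.5% for Trbv13-1, 52.5% for Trbv15, 39.8% for Trbv3 (41.6% in its comparison cells) and 25.4% for Trbv16 (44.0%). In homo they were 77.8% for Trbv26, 64.6% for Trbv13-1 and 51.9% for both Trbv1 and Trbv3. Counting any Trav UMI, 36.4% (33.9% to 38.9%) of Trbv2 cells in PBS had Trav17, against 1.17% of others. The most frequent Trav gene of Trbv20 cells in mix was Trav9d-4, in 7.55%, against 0.12% of others. In Trbv16 cells of mix, it was Trav15d-1-dv6d-1, in 12.9% against 0.12%. These last 2 genes are duplicated, with 9.30% and 14.4% of their 50-base windows unique. In Trbv16 cells of homo, the most frequent Trav gene was Trav3-3, in 11.5% against 9.07% of others. Of the 370 windows of Trav3-3, 222 were unique. Every window of Trav17 was unique, although few Trbv2 cells of PBS had a Trav call. The part of shared reads and of the annotation in the low call shares was not tested.

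**Figure D5:**
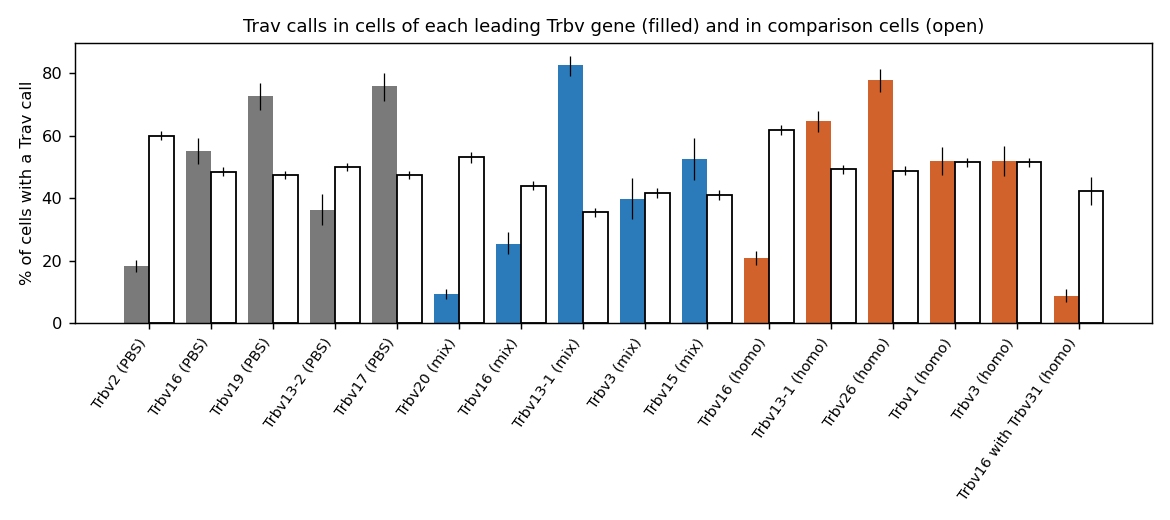
Share of CD8-gated cells with a Trav call (y axis, %) among cells called for each of the 5 leading Trbv genes of a library (filled bars) and among the other cells of that library with a Trbv call (open bars), with exact 95% intervals. The last pair sets Trbv16 cells of homo with at least 2 Trbv31 UMIs (filled, 8.53%) beside those without one (open). Among the 5 leading Trbv genes of each library, Trbv2, Trbv20 and Trbv16 have the lowest filled bars of PBS, mix and homo.

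Joining segments were seen in a minority of cells, and in Trbv2 and Trbv20 cells they were concentrated. Of 1509 Trbv2 cells in PBS, 15.8% had a Trbj UMI. Of these 238 cells, 180 had Trbj2-4, or 75.6% (69.7% to 80.9%), against 6.57% of other cells with a Trbj UMI. Trbj1-1 was seen in 130 of 257 Trbv20 cells of mix, 50.6% (44.3% to 56.9%), against 9.20% of others. Trbv16 cells of homo had no such leader: Trbj2-1 was seen in 31.3% of 83 cells, against 32.5% of others. Among cells with unequal Trbc UMIs, Trbc2, which lies behind the Trbj2 segments, exceeded Trbc1 in 92.0% of Trbv2 cells in PBS, against 77.0% of others. It did so in 80.8% of Trbv20 cells in mix, whose leading Trbj gene is of the Trbj1 group, against 80.3% of others, and in 92.6% of Trbv16 cells in homo, against 78.4%.

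A second Trbv gene with at least 2 UMIs was found in 12.5% (11.7% to 13.4%) of PBS CD8-gated cells with a call, 10.0% of mix and 26.1% (24.9% to 27.2%) of homo. The homo value came largely with Trbv16: 739 of 1406 Trbv16 cells, or 52.6% (49.9% to 55.2%), also had at least 2 UMIs of Trbv31, against 0.86% of cells called for other genes. Trbv13-2 was also a second gene of Trbv16 cells, in 257 of 1406 in homo (18.3%) and 44 of 613 in mix (7.18%). Among cells called for neither gene it was found in 2.80% and 1.87%. In homo it also accompanied Trbv14 in 35 of 102 Trbv14 cells. Trbv31 was called as the highest gene in only 0.41% of homo cells, while its summed level, 76.1 CPM, was above that of PBS (66.4) and mix (21.01). In PBS, Trbv31 accompanied Trbv19 in 131 of 413 Trbv19 cells, and Trbv19 accompanied Trbv31 in 69 of 325 Trbv31 cells. Without doublet removal the share with a second Trbv gene was 14.5%, 11.8% and 28.2% in the 3 libraries.

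The share with a second gene was lower at lower depth. In cells thinned to 2000 UMIs it was 4.30%, 2.65% and 6.42% for Trbv, and Trbv31 was found in 10.3% of Trbv16 cells of homo. Trbv16 cells with Trbv31 had a median of 9329 UMIs, against 6097.5 in the 504 Trbv16 cells without a Trbv31 UMI. A Trav call was made in 8.53% (6.61% to 10.8%) of the former and 42.3% (37.9% to 46.7%) of the latter. Trav3-3 was seen in 2.57% of the former and 27.8% of the latter. A second Trav gene was found in 16.0%, 16.0% and 19.6% of CD8-gated cells with a Trav call in PBS, mix and homo, and in 4.83%, 3.77% and 2.55% after thinning.

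Carriers of the leading beta genes were set against other called CD8-gated cells of their library for 14 genes of T cell state, of which 13 reached 10 CPM in either group. At least 2-fold apart were 5 of 13 for Trbv2 in PBS (Tox and Prf1 higher, Tcf7, Ccr7 and Gzma lower), against 3.09% of all genes. For Trbv20 in mix they were 2 of 13 (Tcf7 and Ccr7, both lower), against 1.75%, and for Trbv16 in homo 1 of 13 (Tcf7, lower), against 0.994%. The other called cells include naive-gated ones, a gate defined by Ccr7 in which the leading genes were less frequent than in the PD-1 gate. Lower Ccr7 in carriers therefore restates that result in part. The part of naive-gated cells in the Tcf7 and Tox ratios was not tested. Differences of carriers were not particular to the leading genes. Tcf7 was also at least 2-fold lower in Trbv13-1 cells of mix and Trbv26 cells of homo. Ccr7 was so in Trbv16 and Trbv15 cells of mix, and Gzma in Trbv16 and Trbv17 cells of PBS and Trbv13-1 cells of homo. In contrast, Ccr7 was higher in Trbv3 cells of mix and Gzma in Trbv19 cells of PBS. Tcf7, a factor of naive and stem-like T cells, was at 4.11 CPM in Trbv2 cells of PBS and 51.2 in other called cells, a log2 ratio of -3.64 (-4.10 to -3.21). In Trbv20 cells of mix it was at 6.62 against 52.7 CPM, and in Trbv16 cells of homo at 19.7 against 49.8. Tox, a factor of exhausted T cells, was higher in carriers, with log2 ratios of 1.40 (1.32 to 1.48), 0.61 and 0.58.

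Cytotoxic genes did not move alike across the 3 carrier groups. Prf1, which encodes perforin, was at 1024 CPM in Trbv2 cells of PBS against 496 in others, a log2 ratio of 1.04, with 0.23 for Trbv20 in mix and 0.03 for Trbv16 in homo. Gzmb, which encodes granzyme B, had log2 ratios of -0.28, 0.68 and -0.01. Gzma was lower in carriers of each library, at -1.75, -0.86 and -0.79. Lag3 was at 777 against 553 CPM in PBS, a log2 ratio of 0.49, and its ratios were 0.27 in mix and 0.12 in homo. Pdcd1 differed little, at -0.02, 0.16 and -0.05. In Trbv16 cells of homo with Trbv31, set against those without, Tcf7 was at 8.50 against 48.9 CPM. These ratios compare cells of 1 library, with no replicate.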

How the data were processed

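UMIs were counted per gene and barcode in 3 10x Genomics libraries (PBS, mix, homo) with totals of 56427870, 49179708 and 65336646, and analysed from the deposited count matrices. Per the file headers the counts came from Cell Ranger 7.1.0, whereas mm39, Seurat 4.1.0 and Cell Ranger 2.1.1 are listed in the submitters' processing notes. Counting of multi-mapped reads is not given in the sources used here. Members, gene lists and tests were chosen with earlier results of these data known.

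Kept barcodes had at least 500 genes and 1000 UMIs, with under 10% of UMIs mitochondrial. Scrublet (scanpy 1.11.5) called 0, 1 and 0 doublets by its own threshold, so the highest scores were removed at 0.8% per 1000 barcodes (803, 527 and 485). Gates and V calls are defined with the results; the naive gate was narrowed to Ccr7 after seeing the data, and 1 planned gene and 1 segment sequence are not reported here. CPM are summed gated UMIs scaled by all UMIs of those cells. Shares carry exact Clopper-Pearson and CPM ratios exact conditional binomial intervals (scipy 1.17.1). The latter treat UMIs as independent, which UMIs of the same cell are not, and are therefore too narrow. Scripts were tested on simulated data. The text names the 5 leading V genes per chain, library and gate, the CPM ratios farthest from 0 by the interval end nearest 0, leading pairs, Trav1, Trav11, Trav11d, Trbv31, constant and CD3 genes. Trav17 in Trbv2 cells, Trbv14 and the Trbj genes were chosen after their values were seen. Sequences come from GENCODE M21 (GRCm38); no coordinates are given, since the notes name another build. V gene promoters were not used here.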

Additional observations from a re-analysis of the deposited data

How the results depend on the processing

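With 1 library per treatment, no spread between animals or libraries could be measured, and no library could be left out. No paired analysis was possible because each treatment has 1 library and no test was made. Depth limits the calls: cells without 2 UMIs of a chain are uncalled, and Foxp3-gated homo cells gave 68 Trbv and 70 Trav calls. The leading gene was the same in 26 of 27 library and setting combinations for Trbv of CD8-gated cells, 26 of 27 for Trbv of Foxp3-gated cells, 22 of 27 for Trav of CD8-gated cells and 17 of 27 for Trav of Foxp3-gated cells. The excess of the leading Trbv gene in PD-1-gated over naive-gated cells, 29.7, 26.4 and 16.4 percentage points in PBS, mix and homo, was 28.7 to 29.2, 25.5 to 25.6 and 16.5 to 16.7 under both alternatives run. Of the 412 alternative values of summary results, 315 lay within the counting interval of the main share or within 1.5 times of the main number. The others follow, by setting, with gate and library named (5-gene shares are those of the 5 leading genes of the main analysis); the cause of each shift was not tested except where fewer genes or cells were counted by construction. Second-gene shares under thinning and without doublet removal were added after seeing the data. With calls from 1 UMI, leading-gene shares were 7.75%, 13.9% and 11.5% for Trav in CD8-gated PBS, mix and homo cells and 24.8% for Trbv in CD8-gated mix cells. 5-gene shares came to 39.4%, 33.3% and 41.4% for Trav in CD8-gated PBS, mix and homo cells and 58.7% and 63.6% for Trbv in CD8-gated mix and homo cells. The share of cells with a call was 89.4% for Trbv in CD8-gated cells, 59.9% for Trav in CD8-gated cells, 70.3% for Trbv in Foxp3-gated cells and 69.5% for Trav in Foxp3-gated cells. With calls from 3 UMIs, leading-gene shares were 24.3% and 27.9% for Trbv in CD8-gated PBS and mix cells, 10.9% and 21.04% for Trav in CD8-gated PBS and mix cells and 21.5% for Trbv in Foxp3-gated mix cells. 5-gene shares came to 65.2% and 67.8% for Trbv in CD8-gated mix and homo cells and 44.99% and 48.8% for Trav in CD8-gated mix and homo cells. The share of cells with a call was 74.4% for Trbv in CD8-gated cells, 35.9% for Trav in CD8-gated cells, 39.1% for Trbv in Foxp3-gated cells and 44.8% for Trav in Foxp3-gated cells. Without doublet removal, the share of cells with a call was 46.2% for Trav in CD8-gated cells. Second genes were in 14.5%, 11.8% and 28.2% for Trbv in CD8-gated PBS, mix and homo cells. With cells thinned to 2000 UMIs, leading-gene shares were 16.7%, 29.1% and 28.1% for Trbv in CD8-gated PBS, mix and homo cells, 24.1% for Trav in CD8-gated mix cells and 21.9% for Trbv in Foxp3-gated mix cells. 5-gene shares came to 52.96%, 68.7% and 68.95% for Trbv in CD8-gated PBS, mix and homo cells, 50% for Trbv in Foxp3-gated PBS cells and 47.6% and 49.1% for Trav in CD8-gated mix and homo cells. Effective numbers were 11.9 for Trav in CD8-gated mix cells. The share of cells with a call was 60.4% for Trbv in CD8-gated cells, 24.04% for Trav in CD8-gated cells, 38.3% for Trbv in Foxp3-gated cells and 43.7% for Trav in Foxp3-gated cells. Second genes were in 4.30%, 2.65% and 6.42% for Trbv in CD8-gated PBS, mix and homo cells and 4.83%, 3.77% and 2.55% for Trav in CD8-gated PBS, mix and homo cells. In cells with UMIs of a single V gene, leading-gene shares were 32.4%, 29.2% and 8.19% for Trbv in CD8-gated PBS, mix and homo cells and 7.19%, 14.9% and 10.3% for Trav in CD8-gated PBS, mix and homo cells. 5-gene shares came to 58.1% and 63.2% for Trbv in CD8-gated PBS and homo cells and 34.9% and 42.6% for Trav in CD8-gated mix and homo cells. The share of cells with a call was 54.97% for Trbv in CD8-gated cells, 27.2% for Trav in CD8-gated cells, 43.6% for Trbv in Foxp3-gated cells and 30.6% for Trav in Foxp3-gated cells. With gates of 2 UMIs, the share of cells with a call was 82.9% for Trbv in CD8-gated cells, 56.9% for Trbv in Foxp3-gated cells and 59.4% for Trav in Foxp3-gated cells. Weighted by UMIs, leading-gene shares were 14.3%, 24.8% and 29.5% for Trbv in CD8-gated PBS, mix and homo cells, 8.26% and 28.1% for Trav in CD8-gated PBS and mix cells and 13.4% and 29.3% for Trbv in Foxp3-gated PBS and mix cells. 5-gene shares came to 30.9% and 50.3% for Trav in CD8-gated PBS and mix cells and 69.4% and 64.3% for Trbv in CD8-gated mix and homo cells. Effective numbers were 9.90 for Trav in CD8-gated mix cells. By family, effective numbers were 13.9, 8.23 and 9.68 for Trav in CD8-gated PBS, mix and homo cells and 11.96, 10.3 and 12.8 for Trav in Foxp3-gated PBS, mix and homo cells. At 50 CPM, V genes apart numbered 10 of 15 (homo against PBS), 7 of 12 (mix against PBS) and 9 of 15 (homo against mix) in CD8-gated cells and 5 of 14, 2 of 12 and 6 of 15 in Foxp3-gated cells. At 1.5-fold, V genes apart numbered 28 of 53 (mix against PBS) in Foxp3-gated cells, against 4.03% of all genes. With pairs from 3 UMIs, leading pairs made up 8.21%, 23.3% and 10.6% of CD8-gated PBS, mix and homo cells.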

Other observations

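Barcodes with UMIs of both Foxp3 and a CD8 gene belong to neither gate. They numbered 227, 232 and 256 in PBS, mix and homo, and 163, 152 and 228 had a Trbv call. Their most used Trbv gene was the one leading the CD8-gated cells of the same library: Trbv2 at 13.5% (8.66% to 19.7%) in PBS, Trbv20 at 14.5% (9.30% to 21.1%) in mix and Trbv16 at 25.9% (20.3% to 32.1%) in homo. A second Trbv gene with at least 2 UMIs was found in 28.2%, 31.6% and 68.0% of those called. Median UMIs of these barcodes were 6059, 6667.5 and 13132, and the part of depth in the second-gene shares was not tested. Their usage was 21.6%, 24.6% and 12.9% apart from that of CD8-gated cells and 23.8%, 30.4% and 49.7% apart from that of Foxp3-gated cells.

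Cells with Cd4 UMIs and none of Foxp3 and the CD8 genes had 181, 204 and 57 Trbv calls. Trbv3 led them in PBS at 13.3%, and Trbv13-2 led in mix at 15.7% and in homo at 19.3%. Their Trbv usage was 15.0%, 17.9% and 32.8% apart from that of Foxp3-gated cells of the same library and 38.8%, 42.7% and 41.8% apart from that of CD8-gated cells.

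Among constant genes of the gamma chain in CD8-gated cells, Tcrg-C1 was at 1.33, 19.96 and 14.8 CPM in the 3 libraries and Tcrg-C2 at 16.3, 20.1 and 40.8. The delta constant gene Trdc was at 1.26, 0.53 and 0.36 CPM.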
